A study of Mus musculus with 7 samples.

Results

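The genes described are 7 mouse genes for subunits of the GABA-A receptor: the alpha subunit genes Gabra2, Gabra3, Gabra4 and Gabra5, the beta subunit genes Gabrb1 and Gabrb2, and the delta subunit gene Gabrd. They were chosen by symbol, with earlier results of these data known. The count table of 39017 genes holds all 7, and 19 GABA-A subunit genes in all. All 7 passed the filter on low counts, so none is missing from the tests. RNA was measured by sequencing in 7 hippocampal libraries from mice with Gad2-driven Cre recombinase that were crossed with mice carrying EGFP-tagged ribosomal protein L10. Gad2 is the gene of a GABA-making enzyme, so Cre driven from it acts in GABAergic neurons, and the tag is made where Cre has acted. In translating ribosome affinity purification (TRAP) an antibody against the tag captures ribosomes together with the RNA they carry, and 2 hippocampi were pooled per purification. The 3 bound libraries hold the captured RNA and the 4 unbound ones the RNA left behind. Both groups are labelled hippocampus, and the labels give no age, sex, strain or treatment beyond bound and unbound. They also do not say which bound and unbound libraries share animals, or that the libraries came from separate animals, so the p-values below take in only library-to-library spread, which may be technical.

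GABA-A receptors are pentameric chloride channels opened by GABA, and they carry most fast inhibition in the brain. A typical receptor combines alpha and beta subunits, between which GABA binds, with a gamma subunit or, outside the synapse, a delta subunit. In the hippocampus, Gabra5 is known for its high level in pyramidal cells and for extrasynaptic receptors, and Gabra4 and Gabrd for the tonic inhibition of dentate granule cells. Gabra2 is known for receptors on the cell body and axon initial segment of pyramidal cells.

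The alpha subunits are known to differ at one position of the binding site for benzodiazepines, where a histidine gives sensitivity to classical benzodiazepines and the arginine of the Gabra4 subunit does not. The coding stretch around that codon is shown for the alpha genes because it separates Gabra4 from the other 3. It was read from GENCODE M21 transcripts, runs 5′ to 3′ on the coding strand, and has the codon in capitals.
Gabra2: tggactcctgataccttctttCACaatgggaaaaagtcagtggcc
Gabra3: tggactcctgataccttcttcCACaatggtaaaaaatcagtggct
Gabra4: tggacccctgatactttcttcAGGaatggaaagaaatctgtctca
Gabra5: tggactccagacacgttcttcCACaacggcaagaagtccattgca
On GRCm38 these 45 bases lie within 1 coding exon each, at chr5:71014484-71014528, chrX:72501147-72501191, chr5:71641131-71641175 and chr7:57488870-57488914, all on the minus strand.

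The beta subunits are known to differ at a residue of the second membrane segment that sets sensitivity to the anaesthetic etomidate, an asparagine in the sensitive Gabrb2 subunit and a serine in the Gabrb1 subunit. The matching stretches show that codon in capitals.
Gabrb1: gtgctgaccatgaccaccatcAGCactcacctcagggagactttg
Gabrb2: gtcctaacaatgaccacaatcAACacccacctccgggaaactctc
They lie in coding exons at chr5:72121960-72122004 and chr11:42597552-42597596, on the plus strand. Over paired codons, 60.2% to 69.4% of bases were identical between the alpha genes and 70.8% between Gabrb1 and Gabrb2. With both strands compared, the longest identical run between annotated transcripts of any 2 of the 7 genes was 65 bases, in Gabra2 and Gabra3. The next was 29 bases, in Gabra4 and Gabrb1.

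On mm10, Gabra2 (ENSMUSG00000000560) lies at chr5:70957597-71095849, Gabra4 (ENSMUSG00000029211) at chr5:71569749-71658308 and Gabrb1 (ENSMUSG00000029212) at chr5:71658113-72149037. Gabra4 and Gabrb1 are arranged head to head on opposite strands, and 46 exonic bases belong to both. Gabra5 (ENSMUSG00000055078) lies at chr7:57407672-57510059, Gabrb2 (ENSMUSG00000007653) at chr11:42419757-42629028, Gabrd (ENSMUSG00000029054) at chr4:155384980-155398112 and Gabra3 (ENSMUSG00000031343) at chrX:72432681-72656848. All are protein-coding, and values are for all exons of a gene. An antisense gene, Gm9962, shares 148 exonic bases with Gabra5, which is 4.98% of its exon length. The strand setting of the counting is not given in the sources used here.

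Library totals ranged from 38690380 to 51953811 counts, and the 7 genes had between 128 (Gabrd) and 9962 (Gabra5) counts per library. The tests take in the spread between libraries as well as counting error. Unbound replicates 3 and 4 were far more alike than any other pair, at 5.57 times the counting variance against 25.0 to 46.3 times. Transcripts encoded by mitochondrial DNA took 28.5% to 32.9% of unbound and 0.0867% to 0.123% of bound counts. Values in CPM are counts scaled to library size after TMM scaling, which takes the typical gene as unchanged. Gad2 itself was 4.99-fold higher in the bound libraries and Slc17a7, the vesicular glutamate transporter of excitatory neurons, 34.0-fold lower. All 8 GABAergic neuron markers were higher in bound libraries, with a summed level of 2806 to 3132 CPM against 439.2 to 563.3 CPM. All 8 markers of excitatory neurons were lower (1105 to 1390 against 5610 to 7508 CPM), as were all 4 of dentate granule cells (69.2 to 89.2 against 343.2 to 370.2 CPM) and 7 of 8 of astrocytes (242.2 to 267.5 against 2038 to 2979 CPM). All 11 microglial markers were higher (264.8 to 748.3 against 86.5 to 128.6 CPM), with the highest sum in bound replicate 2. Sums were also lower for oligodendrocytes (341.7 to 422.9 against 1262 to 1450 CPM) and oligodendrocyte precursors (9.62 to 13.2 against 91.1 to 102.2 CPM). The same held for choroid plexus (13.2 to 48.0 against 943.5 to 1649 CPM) and meningeal fibroblasts (3.62 to 6.21 against 200.7 to 216.3 CPM). Endothelial and mural cell sums were lower too (18.9 to 30.5 against 102.7 to 119.1 CPM), with 4 of 6 markers called. No marker of any of these lists was at 0 in all bound libraries. The part of these cell types in the results below was not tested, and in bulk RNA fewer cells of a type and less RNA per cell cannot be told apart.

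Of the 7 subunit genes, 4 were lower in the bound libraries and 2 were higher (edgeR quasi-likelihood test, adjusted p under 0.05 over all genes tested). Gabra5, Gabrb1, Gabra4 and Gabra2 were lower, in that order of size, and Gabra3 and Gabrb2 were higher. The seventh gene, Gabrd, did not pass. Of the 19563 genes tested, 31.0% were called higher and 30.7% lower in bound libraries, 61.7% together, so a call as such does not set a subunit apart. The median log2 fold change was −0.72 over the 7 genes and −0.01 over all genes tested. The 7 were picked from a larger family, with earlier results of these data known. Their median therefore does not stand for all GABA-A subunit genes. The CPM ranges of both groups were separate for 6 of the 7, and for 63.3% of all genes tested.

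**Figure D1:**
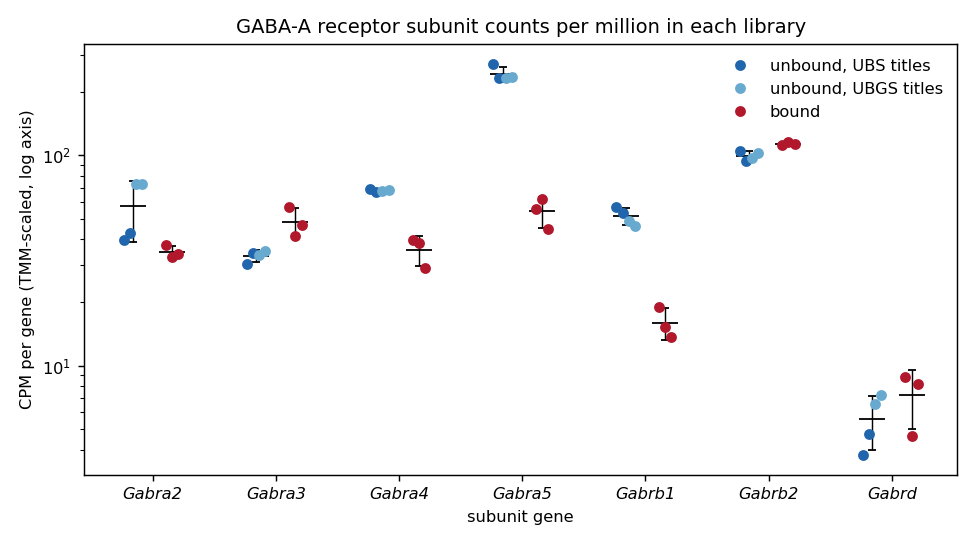
CPM of each of the 7 subunit genes (log axis) in each library, with unbound libraries on the left of each gene, coloured by title series, and bound libraries on the right. Horizontal marks are group means and bars are SD (n = 4 unbound, n = 3 bound). Gabra5 shows the widest gap between groups, the unbound Gabra2 points split by title series, and only the groups of Gabrd overlap.

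Among the alpha genes, Gabra5 differed most. It stood at 272.7, 232.7, 233.7 and 235 CPM in unbound replicates 1 to 4 and at 55.6, 62.2 and 44.5 CPM in bound replicates 1 to 3. Every bound library was far below every unbound one. The difference was 4.50-fold (log2 −2.17, SE 0.12, edgeR adjusted p = 6.1e-08; 54.1 ± 8.94 CPM bound, SD, n = 3, and 243.5 ± 19.4 CPM unbound, SD, n = 4). It passed under each of 17 alternative analyses, at log2 −2.29 to −1.73. Gm9962, the antisense partner, had 201 to 834 counts per library.

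Gabra4 stood at 69.4, 66.8, 67.4 and 68.3 CPM in the unbound libraries and at 39.7, 38.2 and 29 CPM in the bound libraries. The unbound values lay close together and the third bound library was the lowest. Gabra4 was 1.91-fold lower in bound libraries (log2 −0.93, SE 0.11, edgeR adjusted p = 2.1e-05). Scaled by library totals, its difference was log2 −0.49, still past the threshold. All marker sums given above except those of GABAergic neurons and microglia were lower in the same libraries, and their part here was not tested.

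Gabra2 stood at 39.6 and 42.6 CPM in unbound replicates 1 and 2, at 73 and 73.3 CPM in unbound replicates 3 and 4, and at 37.5, 33 and 33.9 CPM in the bound libraries. The unbound libraries therefore formed a low and a high pair, and the bound values lay just below the low pair. With all libraries Gabra2 was 1.64-fold lower in bound libraries (log2 −0.72, SE 0.21, edgeR adjusted p = 0.012). The low pair has titles that start with UBS and the high pair titles that start with UBGS, and the labels do not say what these series are. Against the UBS libraries alone the difference was log2 −0.24 (edgeR adjusted p = 0.12), and against the UBGS libraries alone it was log2 −1.05 (edgeR adjusted p = 6.6e-05). The call was also lost with library totals in place of TMM (log2 −0.28) and with a correction for a trend with exon length (log2 −0.40).

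Because of that split, the UBS and UBGS libraries were compared directly, a test added after the values were seen. Gabra2 was 1.78-fold lower in UBS than in UBGS libraries (log2 −0.83, SE 0.07, edgeR adjusted p = 0.023), and it was the only one of the 7 that passed with all 4 libraries. In that comparison 0.229% of 19256 genes were called. Without unbound replicate 3 the log2 difference was −0.84 but the adjusted p was 0.11. Gabrd also stood lower in UBS libraries (log2 −0.70, SE 0.18, edgeR adjusted p = 0.18) without passing. The other 5 genes had log2 differences from −0.09 to 0.21. The last was that of Gabrb1 (edgeR adjusted p = 0.25). Leaving out unbound replicate 1 or 2 raised the genes called from 44 to 4684 and 7389, with the lone UBS library assumed to vary like the others. Gabrd passed in both of these fits (log2 −0.54 and −0.88) and Gabrb1 in the second (log2 0.26), where calls were that common. Marker sums also differed by series. Astrocyte markers summed to 2851 and 2979 CPM in UBS and 2038 and 2062 CPM in UBGS libraries. Choroid plexus markers summed to 1386 and 1649 against 943.5 and 962.1 CPM, and GABAergic markers to 527.8 and 563.3 against 439.2 and 442.2 CPM. Most of the astrocyte sum was Slc1a2 (2084 ± 441 CPM over the unbound libraries, SD). Most of the choroid plexus sum was Ttr (1195 ± 335 CPM, SD). Sums of excitatory neuron, oligodendrocyte and microglial markers were also higher in UBS libraries. Those of dentate granule cells overlapped, and those of meningeal fibroblasts were lower. The part of these sums in the Gabra2 difference was not tested.

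Gabra3 was the alpha gene of the 4 that was higher in bound libraries. It stood at 30.3, 34.2, 33.5 and 35 CPM in the unbound libraries and at 56.8, 41.4 and 46.4 CPM in the bound libraries. The lowest bound library lay above the highest unbound one, and bound replicate 1 was the highest. The difference was 1.45-fold (log2 0.53, SE 0.11, edgeR adjusted p = 0.0016), and log2 0.97 when scaled by library totals. In a test against a minimum difference of 1.5-fold it did not pass, whereas Gabra4, Gabra5 and Gabrb1 did.

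The beta genes went in opposite directions. Gabrb1 stood at 56.9, 53.2, 48.5 and 46.3 CPM in the unbound libraries and at 19, 15.3 and 13.7 CPM in the bound libraries. The groups were well apart, and Gabrb1 was 3.20-fold lower in bound libraries (log2 −1.68, SE 0.13, edgeR adjusted p = 8.4e-07). With the correction for exon length its log2 difference was −1.03 (edgeR adjusted p = 2.2e-05), and Gabrb1 has the longest merged exons of the 7 genes, at 13838 bases. Except for GABAergic neurons and microglia, the marker sums given above were all lower in the same libraries, and their part was not tested.

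Gabrb2 stood at 105.3, 93.8, 97 and 102.1 CPM in the unbound libraries and at 111.8, 115.6 and 112.6 CPM in the bound libraries. The groups did not overlap, but the lowest bound value was only slightly above the highest unbound one. Gabrb2 was 1.14-fold higher in bound libraries (log2 0.19, SE 0.07, edgeR adjusted p = 0.031). This call was lost without unbound replicates 2, 3 or 4 or bound replicate 2 (edgeR adjusted p = 0.066, 0.078, 0.052 and 0.071) and with DESeq2 (adjusted p = 0.051). Over all 17 alternatives, with the call kept or lost, the log2 value ranged from 0.16 to 0.62. The log2 value of 0.62 came from scaling by library totals, where the call was kept (edgeR adjusted p = 9.6e-06). It was also kept with the correction for exon length (log2 0.43, edgeR adjusted p = 0.00020). In CPM per kilobase, Gabrb2 to Gabrb1 stood at 12.8 to 17.9 in bound and 3.84 to 4.80 in unbound libraries, a ratio chosen after the values were seen.

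Gabrd had the lowest counts of the 7. It stood at 3.76, 4.74, 6.58 and 7.26 CPM in the unbound libraries and at 8.86, 4.66 and 8.23 CPM in the bound libraries. Bound replicate 2 lay within the unbound range and the other 2 bound libraries above it. The log2 difference was 0.37 (SE 0.27, edgeR adjusted p = 0.26). It passed with library totals in place of TMM (log2 0.80, edgeR adjusted p = 0.024) and was log2 0.61 without bound replicate 2 (edgeR adjusted p = 0.056). Among the bound libraries, that one also had the highest microglial and excitatory neuron sums. It had the lowest sums of GABAergic, dentate granule cell and oligodendrocyte markers. The part of these sums in the Gabrd values was not tested.

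**Figure D2:**
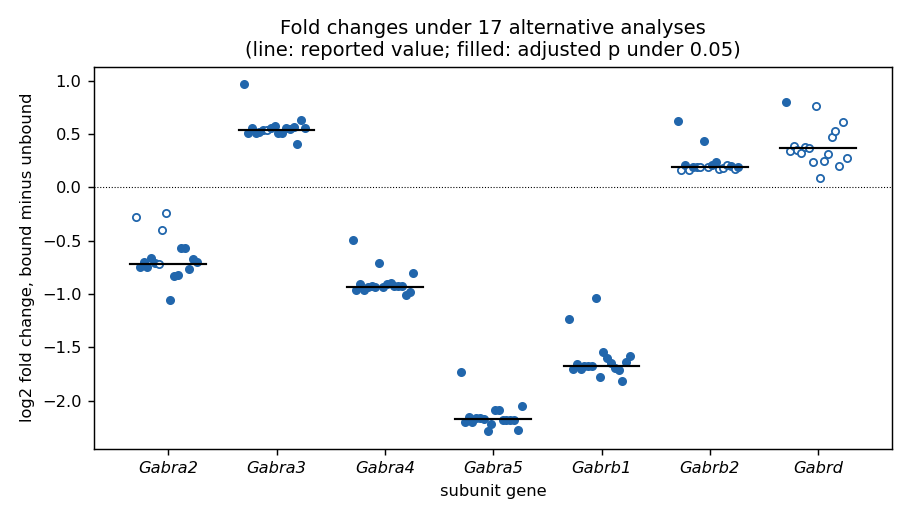
Log2 fold change (bound minus unbound) of each of the 7 subunit genes under 17 alternative analyses (points, filled where the adjusted p was under 0.05) and as reported (line). All points of Gabra4, Gabra5 and Gabrb1 are filled, Gabra3 has 1 open point, and no gene changes sign.

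Library totals in place of TMM moved the median of all genes from −0.01 to 0.43 on the log2 scale, in libraries whose mitochondrial shares differ as given above, and directions here are relative to the TMM scaling. Of 19563 genes, 9284 were then called higher and 3704 lower, in place of 6072 and 6004. None of the 7 genes changed the direction of its log2 fold change between these scalings or under the other alternatives tried for it. The shares described below did not all keep theirs.

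Levels of different genes were compared as CPM per kilobase of merged exon. In unbound libraries Gabra5 was by far the highest, at 81.9 ± 6.54 CPM per kilobase (SD, n = 4), followed by Gabrb2 (15.7 ± 0.808) and Gabra4 (11.2 ± 0.190). Gabra3 (8.48 ± 0.529) and Gabra2 (7.48 ± 2.43) came next and did not differ beyond their spread. Gabrb1 (3.70 ± 0.342) and Gabrd (1.94 ± 0.562) were the lowest. In bound libraries Gabra5 (18.2 ± 3.005, SD, n = 3) and Gabrb2 (17.8 ± 0.313) led without differing beyond their spread, and Gabra3 (12.3 ± 1.99) came next. Gabra4 (5.86 ± 0.950) and Gabra2 (4.56 ± 0.310) followed, then Gabrd (2.52 ± 0.789) and Gabrb1 (1.16 ± 0.197). With the longest transcript as the length, Gabrb2 led in bound libraries at 28.4 ± 0.499 CPM per kilobase, against 20.3 ± 3.35 for Gabra5.

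**Figure D3:**
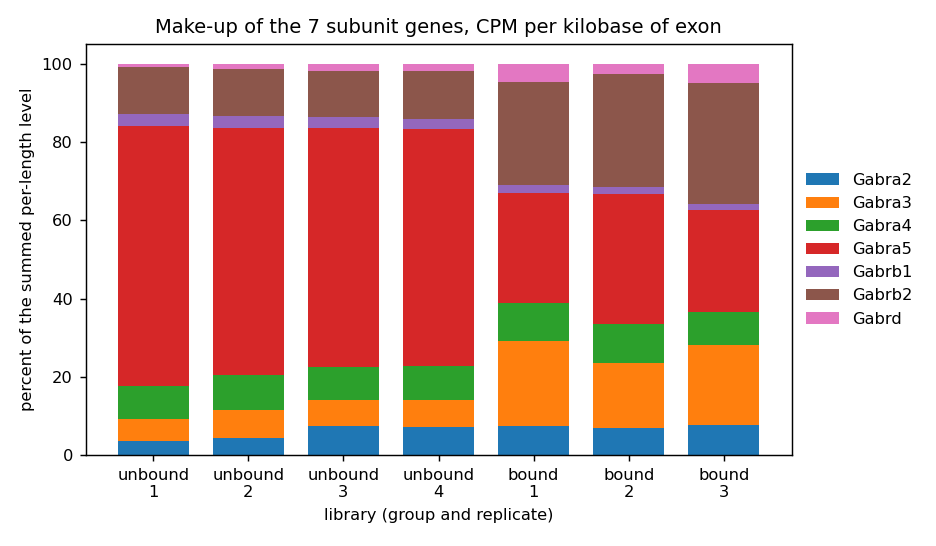
Share of each subunit gene in the summed CPM per kilobase of the 7 genes, as stacked bars for each library. Gabra5 takes 60.5% to 66.4% of the bar in unbound libraries and 26.0% to 33.2% in bound libraries.

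As shares of the summed level per kilobase of the 7 genes, which do not depend on the scaling between libraries, Gabra5 took 62.8% ± 2.72 in unbound and 29.1% ± 3.71 in bound libraries (SD, n = 4 and n = 3). Gabrb2 took 12.01% ± 0.194 and 28.7% ± 2.20, and Gabra3 6.53% ± 0.644 and 19.7% ± 2.58. Gabrd took 1.497% ± 0.445 and 4.06% ± 1.30, and Gabrb1 2.84% ± 0.246 and 1.84% ± 0.188. The groups did not overlap for these 5 shares, each with a two-sided exact permutation p of 0.057, the smallest that 3 against 4 libraries allow (Benjamini-Hochberg adjusted 0.080 over 7). Gabra4 (8.58% ± 0.244 and 9.35% ± 0.927, exact permutation p = 0.23, adjusted 0.27) and Gabra2 (5.76% ± 1.90 and 7.31% ± 0.428, exact permutation p = 0.34, adjusted 0.34) overlapped. Shares of a library sum to a fixed total, so a lower Gabra5 share pushes the others up whatever their own change. The mean Gabra4 and Gabra2 shares were higher in bound libraries although both genes were lower in CPM, and the Gabrd groups overlapped in CPM. The 5 separate shares are therefore not 5 independent results.

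Among other subunit genes, the gamma genes Gabrg1 and Gabrg3 were higher in bound libraries (log2 1.96, SE 0.24, and 0.93, SE 0.08), as was Gabrq, the theta gene (log2 2.83, SE 0.48, from 0.527 ± 0.228 CPM in unbound libraries). Gabre, the epsilon gene, was higher as well (log2 3.34, SE 0.77, edgeR adjusted p = 0.0029), but with a mean of only 1.02 CPM in bound libraries. The rho genes Gabrr1 and Gabrr2 did not pass (log2 1.01 and −1.06), both under 1 CPM in each group.

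**Figure D4:**
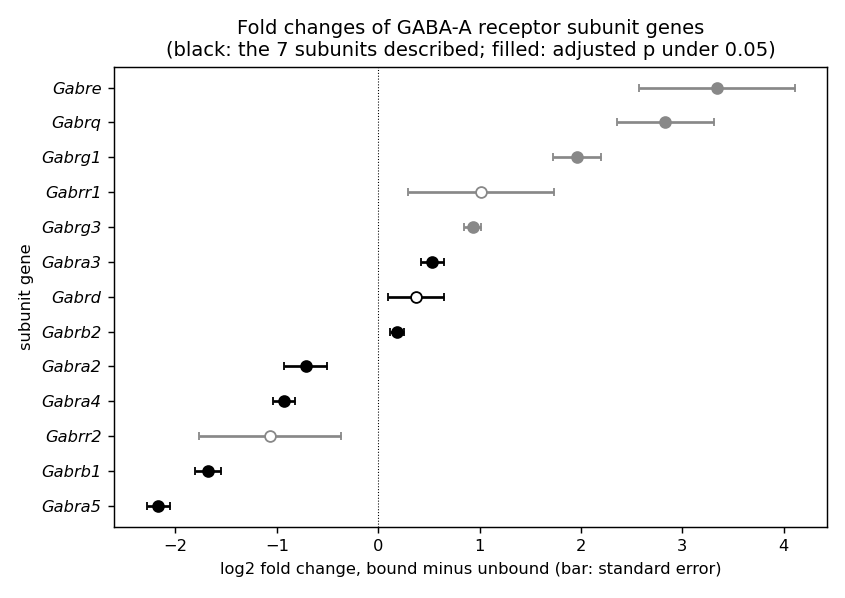
Log2 fold change (bound minus unbound) with its standard error for the 7 subunits described (black points) and 6 other GABA-A subunit genes (grey points), in order of size, and filled points have an adjusted p under 0.05. Gabra5 and Gabrb1 lie lowest and Gabre and Gabrq highest.

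Subunit genes lie in chromosomal clusters, and neighbours did not all go the same way. On chromosome 5, Gabra2, Gabra4 and Gabrb1 were lower in bound libraries and Gabrg1 was higher. On chromosome 7, Gabra5 was lower and Gabrg3 was higher. On the X chromosome, Gabra3 and its neighbours Gabrq and Gabre were all higher.

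Sequence upstream of the annotated start is shown for the 2 alpha genes with the smallest adjusted p among those lower in bound libraries, Gabra5 and Gabra4, and for both genes that were higher, Gabra3 and Gabrb2. These come from RefSeq starts on GRCm38.p6, where 6 of the 7 genes had an entry and Gabrd had none. Up to 250 bases before the first listed start are printed 5′ to 3′ on the gene's strand, without bases inside annotated exons. Capitals mark matches on either strand to the TATA core TATAAA, the CCAAT box CCAAT or the GC box GGGCGG.
Gabra5: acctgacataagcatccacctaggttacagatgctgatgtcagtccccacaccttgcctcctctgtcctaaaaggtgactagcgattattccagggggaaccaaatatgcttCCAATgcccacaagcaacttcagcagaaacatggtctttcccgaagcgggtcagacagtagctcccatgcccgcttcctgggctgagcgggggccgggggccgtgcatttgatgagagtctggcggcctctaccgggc
Gabra4: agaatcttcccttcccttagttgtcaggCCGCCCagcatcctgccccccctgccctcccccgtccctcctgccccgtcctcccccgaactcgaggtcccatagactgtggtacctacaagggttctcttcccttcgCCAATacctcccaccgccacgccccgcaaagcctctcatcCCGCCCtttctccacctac
Gabra3: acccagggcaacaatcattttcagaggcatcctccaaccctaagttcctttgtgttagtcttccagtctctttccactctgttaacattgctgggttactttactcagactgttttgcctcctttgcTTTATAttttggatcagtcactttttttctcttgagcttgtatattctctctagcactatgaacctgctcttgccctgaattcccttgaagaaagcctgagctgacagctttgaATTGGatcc
Gabrb2: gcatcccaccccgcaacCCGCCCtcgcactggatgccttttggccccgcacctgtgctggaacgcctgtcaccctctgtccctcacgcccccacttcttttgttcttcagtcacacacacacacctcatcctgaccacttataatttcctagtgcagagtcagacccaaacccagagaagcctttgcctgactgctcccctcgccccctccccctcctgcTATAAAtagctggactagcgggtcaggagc
They lie at chr7:57510060-57510309, chr5:71658364-71658558 and chrX:72656920-72657169 on the minus strand and chr11:42420190-42420439 on the plus strand. The Gabra4 stretch is 195 bases long and lies in an intron of the head-to-head gene Gabrb1, and that of Gabrb2 lies downstream of the GENCODE gene start. TATAAA was found in the Gabra3 and Gabrb2 stretches and in 12.4% of 32851 windows of 250 bases before RefSeq starts. CCAAT was found in those of Gabra5, Gabra4 and Gabra3 and in 33.8% of windows, and GGGCGG in those of Gabra4 and Gabrb2 and in 32.7%. Gabrb2 and Gabra3 have further listed starts that are not printed. Before those of Gabrb2 neither TATAAA nor GGGCGG was found, and CCAAT was found at chr11:42420524-42420773. Before that of Gabra3, at chrX:72656849-72657057, both TATAAA and CCAAT were found. This stretch overlaps the printed one, and its TATAAA match and 1 of its 2 CCAAT matches are the same bases. The cAMP response element TGACGTCA and the E-box CACGTG were in none of the 4 stretches, against 1.5% and 6.0% of windows. These motifs do not overlap one another in the stretches shown, and a match is a description of the letters only.

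Genes that place or carry GABA-A receptors were mixed. Of 12 anchoring and inhibitory postsynapse genes, 4 were higher and 6 lower in bound libraries (median log2 −0.20). This and the counts for the lists below stand beside 31.0% higher and 30.7% lower among all genes tested, and call nothing particular to a list. Nlgn2, the neuroligin of inhibitory synapses, was higher (log2 0.92, SE 0.07), as was Fam196a (log2 1.26, SE 0.11), also known as Insyn2a, of the inhibitory postsynapse. Dmd, which encodes dystrophin, was lower (log2 −1.35, SE 0.10), as was the adhesion gene Igsf9b (log2 −1.36, SE 0.15). Gphn, which encodes the scaffold gephyrin, did not pass (34.4 CPM bound and 37.7 CPM unbound, log2 −0.13). Rdx, the radixin gene, whose protein anchors Gabra5-containing receptors, was lower (log2 −0.27, SE 0.10, edgeR adjusted p = 0.034).

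Of 13 assembly and trafficking genes, 5 were higher and 6 lower (median log2 −0.11). The higher ones included Gabarap, which binds gamma subunits (log2 1.35, SE 0.07), and Hap1, a motor adaptor (log2 1.77, SE 0.20), and the lower ones Plcl1 (log2 −2.08, SE 0.17) and Nsf (log2 −0.63, SE 0.09). Of 5 tested genes for endogenous modulators and neurosteroid synthesis, 1 was higher and 2 were lower. The higher one was Dbi, which encodes the diazepam binding inhibitor (log2 0.38, SE 0.11). Of the 5 glycine receptor genes, which belong to the same channel superfamily, 3 were higher and none lower. Glra2 reached 24.1 ± 1.76 CPM in the bound group against 3.72 ± 1.36 CPM (log2 2.70, SE 0.24). The other glycine receptor genes called higher were under 1 CPM in each group. The genes named from these lists as higher or lower had edgeR adjusted p-values of 0.034 or less.

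The protein-coding genes with the most similar profiles were found from log2 CPM over the 7 libraries, each centred on its mean, among 8590 genes with at least 10 CPM. Gabra4 was closest to Cdk7 and Slc8a1 (root mean square differences of 0.023 and 0.057 on the log2 scale), and Gabrb2 to Nptn and Tmem50b (0.031 each). Gabra3 was closest to Vbp1 and Pnmal1 (0.042 and 0.057), Gabra5 to Acap2 and Neurl1b (0.067 and 0.071) and Gabrb1 to Mal2 and Chpt1 (0.060 and 0.069). Gabra2 and Gabrd had the loosest matches, to Akap8 and Zfp605 (0.13 and 0.14) and to Zfp846 and Lzts2 (0.16 and 0.18). All profiles run over the same 2 groups of libraries.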

How the data were processed

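RNA was counted in 3 TRAP-bound and 4 unbound mouse hippocampal libraries. Counts per gene were deposited as whole numbers, not normalized, and STAR 2.5.3a, HTSeq (version not stated) and mm10 are named per the submitters' processing notes. The sources used here give no annotation or strand setting. Of 39017 IDs, 37607 matched GENCODE M21. The 7 libraries have 38690380 to 51953811 counts, and replicate pairs showed 5.57 to 46.3 times the variance of counting alone. Each library was counted as its own sample, but this spread does not show that they came from separate animals.

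All genes were fitted in R 4.3.3 with edgeR 4.0.16 (filterByExpr, TMM, robust quasi-likelihood F test, Benjamini-Hochberg threshold 0.05, SE from the F statistic), and only rows of interest are given. The test was checked on simulated data. Alternatives used DESeq2 1.42.0, limma-voom (limma 3.58.1), other scalings, filters, lengths and library subsets. The members and gene lists were chosen with earlier results of these data known. Named were the 7 subunits, other subunit genes with at least 1 CPM (some are not reported here), up to 2 higher and 2 lower called genes per list with at least 5 CPM, the 2 nearest profiles per subunit, Gad2 and Slc17a7. Gm9962, Gabre, Gphn, Rdx and the Gabrb2 to Gabrb1 ratio were added after values were seen. Gabrr1 and Gabrr2, both under 1 CPM, were also named outside the limit for other subunit genes. A planned protein alignment was replaced by coding bases.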

Additional observations from a re-analysis of the deposited data

Results flagged for a closer look

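Gabra5 in the unbound group was marked because 1 of the 4 libraries stood far from the rest. Unbound replicate 1 was at 272.7 CPM and the other 3 at 232.7 to 235 CPM, a gap of 0.943 of the group's range, above Dixon's 95% critical value for 4 samples. Of 14 such groups examined (CPM and share of each of the 7 genes in unbound libraries), this was the only one marked, and chance marks about 1 in 20. Without that library Gabra5 was at log2 −2.09 against −2.17 with all libraries.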

How the results depend on the processing

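No paired analysis was possible because the labels give no animal or pairing and the titles' numbers are not shared between bound and unbound libraries. Over 17 alternatives, Gabra4, Gabra5 and Gabrb1 kept their direction and call, at log2 −1.01 to −0.49, −2.29 to −1.73 and −1.82 to −1.03. The Gabra2 call was lost with library totals, the exon length correction, the UBS libraries alone and the 1.5-fold minimum (log2 −0.28, −0.40, −0.24 and −0.72), and the Gabra3 call with the 1.5-fold minimum (0.53). Gabrb2 lost its call with DESeq2 size factors, DESeq2, the 1.5-fold minimum and the UBS libraries alone (0.16, 0.16, 0.19 and 0.19), and leaving out single libraries gave 0.17 to 0.24. Gabrd passed with library totals (0.80). The number of subunits called higher was 2, but 1 with DESeq2 size factors, DESeq2 and the UBS libraries alone, and 1 to 2 with single libraries left out. It was 0 with the 1.5-fold minimum (edgeR glmTreat, also 0 at an unadjusted p under 0.05). The cause of these losses was not tested, except that the 1.5-fold minimum asks for a larger difference.

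Over all genes, 6072 were higher and 6004 lower; library totals gave 9284 and 3704 and the 1.5-fold minimum 3246 and 3608. Between UBS and UBGS libraries, 44 genes were called, 22 with library totals, 301 with DESeq2, 104 without a filter and 16 to 7389 with 1 library left out, when the lone library of a series is assumed to vary like the others. Gabra2 stood there at log2 −0.84 with library totals (no longer called) and at −0.89 to −0.78 with 1 library left out.

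The share differences, bound minus unbound in percentage points, were 13.1 for Gabra3 and 16.6 for Gabrb2, and 10.6 and 19.6 with the longest transcript as length. With all subunit genes in the sum, shares of a larger total, they were 4.51 (Gabra3), −18.4 (Gabra5, from −33.7), −0.63 (Gabrb1, from −0.996), 5.40 (Gabrb2) and 0.86 (Gabrd, from 2.56), and Gabra4 turned from 0.77 to −0.44. Gabra2 went from 1.55 to 3.18 with the UBS and to −0.070 with the UBGS libraries alone.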
